A study of Homo sapiens with 6 samples.

Results

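The collagen chain genes are the human genes whose symbols read COL, a number, A and a number, and each encodes 1 chain of a collagen. All rows of the deposited table with such a symbol were taken, which gave 44 genes of 35268 named rows. They were 11 chains of fibrillar collagens, 6 chains of type IV collagen (the collagen of basement membranes) and 27 other chains. Rh30 is an established human line of fusion-positive rhabdomyosarcoma (FP-RMS), a soft tissue cancer with a muscle-like program that is driven by the PAX3-FOXO1 fusion. Polyadenylated RNA was sequenced from Rh30 cells kept for 24 hours in 1 µM YK-4-279 dissolved in DMSO (YK, n = 3) or in DMSO alone (DMSO, n = 3). YK-4-279 is a small molecule described as an inhibitor of ETS transcription factors, and per the study's methods it was used as a racemic mixture. Both groups carry the same fusion and come from 1 line, and the sources name the samples only as triplicates, so p-values measure the spread between these samples, which may be technical.

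Collagen chains wind into trimers in the endoplasmic reticulum after their prolines and lysines are hydroxylated, and the trimers are then secreted and assembled outside the cell. Fibrillar chains (types I, II, III, V, XI, XXIV and XXVII) make the banded fibrils of connective tissue, with types V and XI inside the fibrils of types I and II. Type IV chains make the network of basement membranes, which also surrounds muscle fibers. Chains termed FACIT sit on fibril surfaces, type VI makes beaded filaments around muscle fibers, and types XV and XVIII are multiplexins of basement membrane zones.

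The libraries held 16724650 to 24677433 reads on named genes. DMSO replicate 1 was the shallowest of the 6 and stood apart from the others, with a mean correlation across genes of 0.9888 against 0.9923 to 0.9929, and with 6.05% of its reads on mitochondrial genes against 4.74% to 5.03%. Values without it are therefore given below beside many of the results that it moved, and for other named genes in the closing section. The line's labelled identity was checked on marker genes. MYOD1, MYOG and DES, which mark skeletal muscle lineage, and PAX3 and FOXO1, whose parts make the fusion, lay between 1550 and 39146 normalized counts in every library, and PAX7, which makes another known fusion, was at most 3.34. A normalized count is the reads of a gene, scaled by 1 factor per library.

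Collagen transcripts took 0.368% of the reads in DMSO replicate 1 and 0.420% to 0.447% in the other 5 libraries. Levels were compared between genes per kb of exon, first over all annotated exons merged and then over the MANE Select transcript, the reference transcript of each gene, because merged exons count rarely used parts as full length. Per kb of merged exons, COL5A2, a type V chain, was first with 2352 ± 145 in DMSO and 2386 ± 54.8 in YK (SD, n = 3 each). COL2A1, the chain of cartilage type II collagen, followed with 1088 ± 98.0 and 955 ± 33.5. COL4A2 lay at 872 ± 185 and 881 ± 33.4, and COL4A1 at 812 ± 100 and 812 ± 10.1. Next came COL14A1 (807 ± 59.7 and 775 ± 25.2) and COL5A1 (768 ± 96.6 and 746 ± 15.7). From COL2A1 to COL5A1, the ranges over libraries of neighbors in this order overlapped. Within every library COL5A2 lay above all of them, and COL2A1 lay above COL4A2, COL4A1, COL14A1 and COL5A1. Per kb of MANE Select transcript COL4A2 moved up to the first place, at 2608 ± 554 and 2635 ± 99.99, with libraries that overlapped those of COL5A2 at 2520 ± 156 and 2557 ± 58.7, and COL2A1 moved below COL4A1. From COL14A1 down to COL1A1, by way of COL5A1, COL12A1, COL3A1, COL18A1, COL6A1 and COL27A1, the order was the same on both lengths, with COL12A1 at 630 ± 9.61 and 556 ± 9.43 per kb of MANE Select transcript in DMSO and YK.

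Fibrillar chains held between 56.5% and 57.0% of the summed level per kb of merged exons in all 6 libraries, with overlapping groups. Type IV chains held 18.4% in DMSO replicate 1 and 20.9% to 21.7% elsewhere. Per kb of MANE Select transcript the fibrillar share was 43.8% to 45.5% and the type IV share 31.9% in DMSO replicate 1 and 35.6% to 36.7% in the others. The drug-treated libraries lay inside the range of the DMSO libraries for type IV chains on both scales and for fibrillar chains per kb of MANE Select transcript. Per kb of merged exons, YK replicate 2 lay just above that range for fibrillar chains, at 56.98% against 56.96% in DMSO replicate 1.

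**Figure D1:**
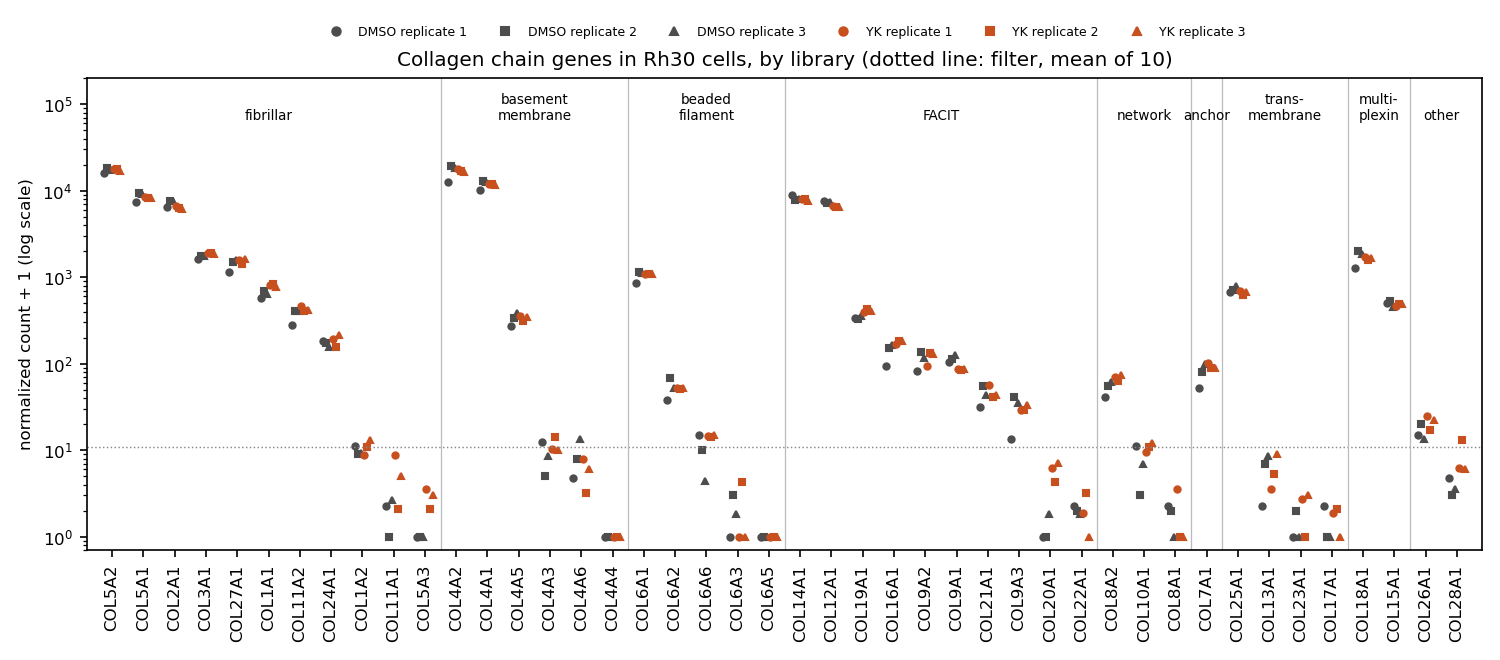
Normalized count + 1 (log scale) of the 44 collagen chain genes in each of the 6 libraries, grouped by structural class and ordered by mean level within a class. Circles, squares and triangles are replicates 1, 2 and 3, gray is DMSO and orange is YK, and the dotted line marks a mean of 10, which 28 genes passed.

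Transcripts of the chains of type I collagen were far from even. Type I collagen is a heterotrimer of the COL1A1 and COL1A2 chains and is the main collagen of fibroblasts. COL1A1 had 4399 reads over the 6 libraries and COL1A2 had 56, a ratio of 92.8 per kb of merged exons and 66.3 per kb of MANE Select transcript. The level of COL2A1 was 12.8 times that of COL1A1 per kb of merged exons, and that of COL5A2 was 8.86 times that of COL3A1, the type III chain. The 4 other genes of a list of cartilage markers were read beside COL2A1, which is itself on that list. SOX9, the transcription factor that drives COL2A1 in cartilage, was at 5276 to 7256 normalized counts, while ACAN, the cartilage proteoglycan, was at 0 in the 3 DMSO libraries and at most 2 in YK, MATN1 lay between 18.0 and 31.7, and MATN3 between 8.57 and 10.9. In bulk RNA, fewer cells that express a gene and less RNA per cell cannot be told apart.

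For the comparison of YK with DMSO, limma was run on log2(normalized count + 1). The fit took in the 13930 genes whose mean reached 10, and p-values were adjusted over all of them by the Benjamini-Hochberg method. Of the 44 collagen genes, 28 passed this filter and 16 did not. Among the 28, 1 passed an adjusted p of 0.05, a share of 3.57%, close to the 3.41% of all genes tested that were called (1.26% higher and 2.15% lower). Likewise 7 of 28 (25.0%) had groups that did not overlap, 5 higher and 2 lower in YK, against 26.0% of all genes tested (10.9% higher and 15.1% lower), and 7 of 28 had an unadjusted p under 0.05, against 18.7% of all. With all 6 libraries, and on only 1 call, collagen genes were thus called about as often as genes tested in general. Their median log2 difference was 0.094 (20 above 0 and 8 below), against -0.0075 over all genes tested. With the dependence of each library on GC content and transcript length removed, the median was 0.012, with 15 above 0 and 13 below, against -0.025 over all genes.

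Leaving out DMSO replicate 1 raised the count to 8 of 28, COL1A1 and COL19A1 higher and COL2A1, COL5A1, COL4A2, COL9A1, COL12A1 and COL18A1 lower in YK, against 13.1% of all genes tested (4.62% higher and 8.46% lower). The median of the 28 was then -0.042, with 11 above 0 and 17 below. Without DMSO replicate 2 the count was 1, against 4.85% of all genes tested. Without DMSO replicate 3 or YK replicate 1, 2 or 3 limma called 0, against 1.74%, 0.136%, 0.165% and 0.330% of all, with 7, 6, 3 and 4 collagen genes at an unadjusted p under 0.05. With all 6 libraries edgeR and DESeq2 each called 1 of the 28, and they called 465 and 635 of all 13930 genes tested.

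**Figure D2:**
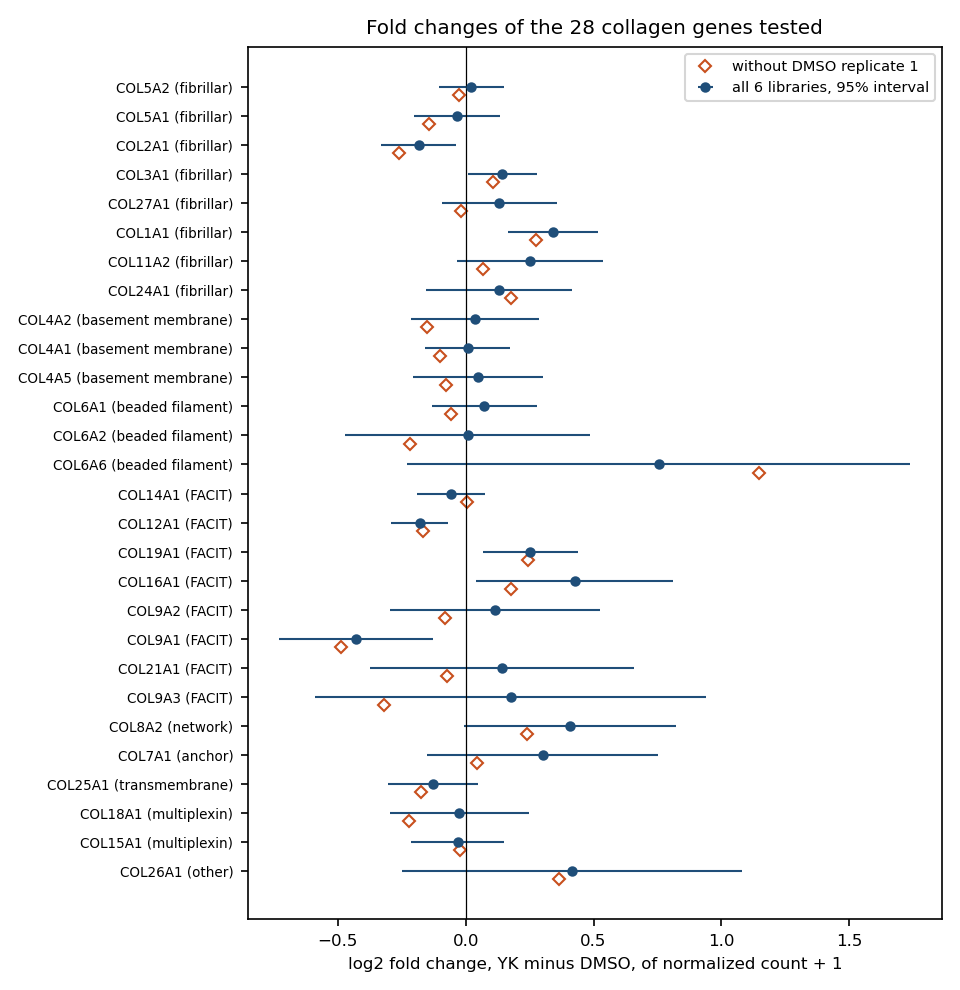
Log2 difference (YK minus DMSO) of normalized count + 1 for the 28 collagen chain genes tested, with the structural class beside each name. Blue points with 95% intervals use all 6 libraries and open orange diamonds leave out DMSO replicate 1, which moves 11 genes to the right of 0 and 17 to the left, from 20 and 8.

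COL1A1 was the collagen gene that passed the test with all libraries. It lies on chromosome 17 (chr17:50184101-50201632, minus strand, hg38 with GENCODE 44 gene limits). COL1A1 stood at 579, 691 and 638 normalized counts in DMSO replicates 1 to 3 and at 816, 824 and 774 in YK. All 3 YK libraries were above all 3 DMSO libraries. The gene rose by 0.34 on the log2 scale (SE 0.08, limma adjusted p = 0.0375), from 636 ± 56.4 to 805 ± 26.5 (SD, n = 3 each). Its log2 difference stayed between 0.26 and 0.40 in 17 alternatives, and 11 of these called it. The call was lost without DMSO replicate 3 (0.35, limma adjusted p = 0.0927) and without YK replicate 1, 2 or 3 (0.33, 0.32 and 0.37, with limma adjusted p = 0.213, 0.190 and 0.127). It was also lost with replicate number as a block (limma adjusted p = 0.0812) and in limma without a variance trend (adjusted p = 0.145). Leaving out DMSO replicate 1, it rose by 0.28 (limma adjusted p = 0.00161). COL1A2, its partner on chromosome 7 (chr7:94394895-94431227), had 26 reads in DMSO and 30 in YK, a ratio of 1.12 after scaling with a 95% counting interval of 0.639 to 1.97.

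Of the 8 fibrillar chains tested, 1 rose, against 1.26% of all genes tested, and 7 did not pass the test, with a median log2 difference of 0.13 and a range of -0.18 to 0.34. COL3A1 stood at 1628, 1766 and 1758 in DMSO and 1928, 1921 and 1839 in YK. The groups did not overlap, but the difference of 0.14 (SE 0.06) did not pass (limma adjusted p = 0.241). COL2A1 lay in the opposite direction, at 6499, 7697 and 7547 in DMSO and 6608, 6309 and 6172 in YK. DMSO replicate 1 fell among the YK libraries, and the difference of -0.18 (SE 0.07) did not pass (limma adjusted p = 0.163). Without DMSO replicate 1, COL2A1 fell by 0.26 (limma adjusted p = 3.59e-06). On the list of cartilage markers 3 of 5 genes were tested and 1 was called, against 3.41% of all genes tested. The call was SOX9, which stood at 7256, 6545 and 6609 in DMSO and 5570, 5344 and 5276 in YK. SOX9 fell by 0.33 (SE 0.06, limma adjusted p = 0.0103), and it was called in 13 of 17 alternatives. Among those that lost the call were the fits without YK replicate 1, 2 or 3 (limma adjusted p = 0.0846, 0.0913 and 0.0915). Whether SOX9 has a part in the level of COL2A1 here was not tested.

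The 2 abundant type V chains were close to even between the groups. COL5A2 stood at 16027, 18081 and 17526 in DMSO and 17686, 17700 and 16999 in YK, a log2 difference of 0.022 with a 95% interval of -0.10 to 0.15 (limma adjusted p = 0.874). COL5A1 stood at 7333, 9316 and 9060 in DMSO and 8487, 8344 and 8137 in YK, a difference of -0.034 with a 95% interval of -0.20 to 0.13 (limma adjusted p = 0.854). For both, the YK libraries lay within the range set by DMSO replicate 1 and DMSO replicate 2. Without DMSO replicate 1 COL5A1 fell by 0.14 (limma adjusted p = 0.00892), while COL5A2 was at -0.028 (limma adjusted p = 0.721). COL11A2, a type XI chain found inside cartilage fibrils, stood at 276, 406 and 404 in DMSO and 458, 403 and 415 in YK, and its difference of 0.25 (limma adjusted p = 0.328) shrank to 0.069 without DMSO replicate 1. COL24A1 (0.13) and COL27A1 (0.13), less abundant fibrillar chains, had overlapping groups, and COL27A1 turned to -0.018 without that library (limma adjusted p = 0.877). COL24A1 was at 0.031 without YK replicate 3 and 0.25 without YK replicate 2.

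**Figure D3:**
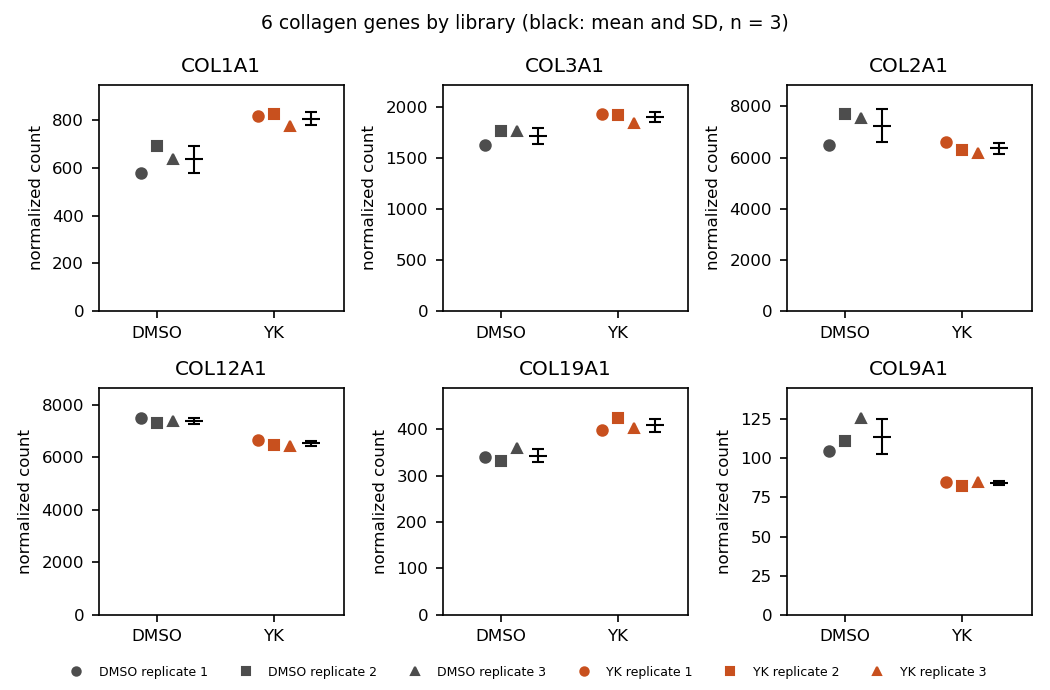
Normalized counts of 6 collagen chain genes in each library, with circles, squares and triangles for replicates 1, 2 and 3 and the mean and SD (n = 3) in black. COL1A1, COL3A1 and COL19A1 lie higher and COL12A1 and COL9A1 lower in all 3 YK libraries, and COL2A1 overlaps through DMSO replicate 1.

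Type IV collagen is encoded by head-to-head pairs of genes that point away from a shared start region, and the bases between the starts are shown because the pairs differed widely in how evenly their chains were expressed. Sequences are RefSeq promoters on GRCh38.p14, plus strand, 5′ to 3′, with bases in annotated exons left out. Capitals mark the GC box GGGCGG and the CCAAT box on either strand, and the ETS core CCGGAA was searched as well. The COL4A1 and COL4A2 starts are 127 bp apart, and the first 100 bases between them are at chr13:110307158-110307257. The COL4A4 and COL4A3 starts in RefSeq are 419 bp apart, and the 170 bases between their exons are at chr2:227164454-227164623. The COL4A6 and COL4A5 starts are 380 bp apart, and the 250 bases before COL4A5 are at chrX:108439588-108439837.
COL4A1|COL4A2: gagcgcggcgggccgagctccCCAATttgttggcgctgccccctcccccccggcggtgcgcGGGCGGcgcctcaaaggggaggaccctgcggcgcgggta
COL4A4|COL4A3: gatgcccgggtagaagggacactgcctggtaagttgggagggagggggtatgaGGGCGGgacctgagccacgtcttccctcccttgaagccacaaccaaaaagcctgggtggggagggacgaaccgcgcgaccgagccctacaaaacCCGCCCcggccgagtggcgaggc
COL4A6|COL4A5: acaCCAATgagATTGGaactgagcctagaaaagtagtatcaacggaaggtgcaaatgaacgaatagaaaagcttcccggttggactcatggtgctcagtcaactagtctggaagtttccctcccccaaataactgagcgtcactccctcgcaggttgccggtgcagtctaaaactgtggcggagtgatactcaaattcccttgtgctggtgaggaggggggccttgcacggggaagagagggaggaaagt

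The region of COL4A1 and COL4A2 holds 1 GC box and 1 CCAAT box, that of COL4A4 and COL4A3 holds 2 GC boxes, and that of COL4A6 and COL4A5 holds 2 CCAAT boxes. Over the 250 bases before the start, promoters of 32 of the 44 collagen genes were in hand, 44 promoters in all, and the other 12 genes had none in the table used. A GC box stood in 24 of these 44 and in 42.6% of all 35114 promoters, a CCAAT box in 12 and in 32%, and TATAAA in 8 and in 10.7%. CCGGAA, searched because YK-4-279 is described as an ETS inhibitor, stood in 0 of the 44 and in 14.5% of all promoters. The shorter GGAA, which lies within it, stood in 40 and in 92.7%. Each count is of letters on both strands in this window and says nothing of binding.

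The 3 windows differ in length, and no link between these letters and the levels was tested. COL4A1 and COL4A2, the chains of the common basement membrane network, had 72869 and 104014 reads, and COL4A1 stood at 0.926 of COL4A2 per kb of merged exons and 0.694 per kb of MANE Select transcript. In the second pair COL4A3 had 54 reads and COL4A4 had 0, so no ratio is given. In the third pair COL4A5 had 2055 reads and COL4A6 had 40, a ratio of 41.9 per kb of merged exons and 54.9 per kb of MANE Select transcript.

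Of the 3 type IV chains tested, 0 passed limma's test with all libraries, against 3.41% of all genes tested. In limma 0 had an unadjusted p under 0.05, against 18.7% of all, and edgeR and DESeq2 also called 0. With 3 genes, such counts cannot be told apart from these shares. COL4A2 stood at 12727, 19340 and 18374 normalized counts in DMSO and 17688, 16846 and 16422 in YK, a log2 difference of 0.038 with a 95% interval of -0.21 to 0.29 (limma adjusted p = 0.896). COL4A1 stood at 10217, 12911 and 12590 in DMSO and 12062, 11871 and 11771 in YK, a difference of 0.0071 with a 95% interval of -0.16 to 0.17 (limma adjusted p = 0.97). In both genes DMSO replicate 1 was the lowest library and DMSO replicates 2 and 3 were the highest. Without DMSO replicate 1 COL4A2 fell by 0.15 (limma adjusted p = 0.00825), and COL4A1 was at -0.099 (limma adjusted p = 0.0871). COL4A5 stood at 274, 333 and 382 in DMSO and 354, 313 and 347 in YK, a difference of 0.049 (limma adjusted p = 0.863) that turned to -0.078 (limma adjusted p = 0.652) without DMSO replicate 1.

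Set beside each other, the median log2 difference was 0.13 for the fibrillar chains, 0.038 for the type IV chains and 0.11 for the other chains with all libraries, and 0.025, -0.099 and -0.056 without DMSO replicate 1. The order of the classes depended on the libraries and on the processing. Leaving out DMSO replicate 2, the median of the other chains was above that of the fibrillar chains (0.23 and 0.16), and leaving out DMSO replicate 3, the fibrillar median was the lowest of the 3 (0.11, against 0.114 for type IV chains and 0.16 for the other chains). With the GC and length trend removed the medians were 0.074, -0.041 and 0.018 in the same order, and among genes with a mean of at least 100 the median of the other chains was -0.025. No test of a difference between the classes was made.

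Among the 17 other chains tested, 0 passed limma's test and edgeR and DESeq2 also called 0, while 4 had an unadjusted p under 0.05 and 5 had groups that did not overlap, against 18.7% and 26.0% of all genes tested. COL12A1, a FACIT chain of dense connective tissue such as tendon, stood at 7510, 7290 and 7359 in DMSO and 6648, 6478 and 6440 in YK. The 2 groups were apart and each was narrow. The difference of -0.18 (SE 0.05) had a limma adjusted p of 0.0770. COL12A1 fell by 0.17 once DMSO replicate 1 was left out (limma adjusted p = 0.00182). COL14A1, a FACIT chain related to COL12A1, stood at 8927, 7822 and 7932 in DMSO and 8082, 8006 and 7605 in YK, a difference of -0.057 with overlapping groups (limma adjusted p = 0.663).

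COL19A1 and COL9A1, both FACIT chains, are neighbors on chromosome 6 that point toward each other, with 3571 bp between their ends, and they lay in opposite directions. COL19A1, a chain of muscle and vessel basement membrane zones (chr6:69866556-70212468, plus strand), stood at 339, 331 and 359 in DMSO and 398, 425 and 402 in YK. All 3 YK libraries were higher, a difference of 0.25 (SE 0.09, limma adjusted p = 0.132). COL9A1, a cartilage chain that coats type II fibrils (chr6:70216040-70303084, minus strand), stood at 105, 111 and 126 in DMSO and 84.8, 82.6 and 85.0 in YK. All 3 YK libraries were lower, a difference of -0.43 (SE 0.14, limma adjusted p = 0.115). Without DMSO replicate 1 COL19A1 rose by 0.24 (limma adjusted p = 0.0478) and COL9A1 fell by 0.49 (limma adjusted p = 0.0375).

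The bases before their starts are shown because the neighbors differed in direction. They are RefSeq promoters on GRCh38.p14, 5′ to 3′ on the strand of each gene, at chr6:69866306-69866470 (plus strand) for COL19A1 and chr6:70303085-70303334 (minus strand) for COL9A1. The 85 bases next to the COL19A1 start lie in an exon of LMBRD1, a gene on the opposite strand, and are left out. Neither run holds a GC box, a CCAAT box or the ETS core on either strand, so that no letters are in capitals, and GGAA or its complement stands 4 times in the COL9A1 run and 0 times in the COL19A1 run.
COL19A1: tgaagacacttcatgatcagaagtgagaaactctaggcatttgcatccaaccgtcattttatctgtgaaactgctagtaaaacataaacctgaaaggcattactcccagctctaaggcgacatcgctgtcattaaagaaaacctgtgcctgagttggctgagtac
COL9A1: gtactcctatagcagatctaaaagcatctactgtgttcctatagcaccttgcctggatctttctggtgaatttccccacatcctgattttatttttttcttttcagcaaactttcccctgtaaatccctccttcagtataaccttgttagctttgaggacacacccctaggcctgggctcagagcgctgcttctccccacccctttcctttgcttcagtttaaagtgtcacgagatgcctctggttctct

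COL16A1, a FACIT chain, and COL8A2, a chain of the hexagonal network of Descemet's membrane in the cornea, were higher in all 3 YK libraries, but both differences were smaller without DMSO replicate 1. COL16A1 stood at 93.3, 150 and 165 in DMSO and 168, 184 and 183 in YK, a difference of 0.43 (SE 0.18, limma adjusted p = 0.222) that was 0.18 without DMSO replicate 1. COL8A2 stood at 40.3, 54.0 and 61.0 in DMSO and 69.4, 61.9 and 73.0 in YK, a difference of 0.41 (SE 0.19, limma adjusted p = 0.277) that was 0.24 without it. COL7A1, the chain of the anchoring fibrils of skin, stood at 51.7, 79.9 and 99.4 in DMSO and 101, 86.9 and 88.0 in YK, and its difference of 0.30 shrank to 0.042.

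COL18A1, the multiplexin whose end is released as endostatin, stood at 1282, 2032 and 1839 in DMSO and 1716, 1594 and 1665 in YK, with all YK libraries between DMSO replicate 1 and the other two. Its difference was -0.025 (limma adjusted p = 0.944) and without DMSO replicate 1 it fell by 0.22 (limma adjusted p = 0.00117). Of the COL18A1 exon bases 18.5% overlap SLC19A1 on the opposite strand, and the strand setting of the counting was not given in the sources used here. COL15A1, the other multiplexin, stood at 454 to 524 in all 6 libraries, a difference of -0.032. COL25A1, a transmembrane chain needed for motor nerves to reach muscle, stood at 678, 714 and 789 in DMSO and 696, 628 and 671 in YK, with overlapping groups and a difference of -0.13 (limma adjusted p = 0.426) that was -0.067 without DMSO replicate 3 and -0.18 without DMSO replicate 1. COL21A1, a FACIT chain, lay between 30.3 and 55.7 in both groups.

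Many collagens need partner chains, and several partners were far from even. Type VI collagen is built from COL6A1, COL6A2 and 1 more chain, usually COL6A3. COL6A1 had 6545 reads, COL6A2 had 316 and COL6A3 had 6, while COL6A5 had 0 and COL6A6 had 66. COL6A1 stood at 19.99 times COL6A2 per kb of merged exons and 17.0 times per kb of MANE Select transcript. Type XI was represented by COL11A2 (2429 reads), with 17 reads of COL11A1. All 3 type IX chains were present, with 605 reads of COL9A1, 696 of COL9A2 and 182 of COL9A3.

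For the 4 pairs with both chains past the filter, the balance within the pair was read as the ratio of counts in each library. With 3 against 3 libraries the exact permutation test cannot go below p = 0.1, so no difference could have passed 0.05, and the values are given as a description. The count of COL4A1 over that of COL4A2 was 0.803, 0.668 and 0.685 in DMSO and 0.682, 0.705 and 0.717 in YK (exact permutation test, two-sided, p = 0.9). COL5A1 over COL5A2 was 0.458, 0.515 and 0.517 in DMSO and 0.480, 0.471 and 0.479 in YK (exact permutation p = 0.4). COL6A1 over COL6A2 was 23.7, 16.8 and 21.8 in DMSO and 21.4, 21.5 and 21.5 in YK (exact permutation p = 1), and COL9A2 over COL9A3 was 6.5, 3.35 and 3.34 in DMSO and 3.30, 4.69 and 4.03 in YK (exact permutation p = 0.8). The YK libraries lay within the DMSO range in each pair, except for the COL9A2 and COL9A3 ratio in YK replicate 1, and the values adjusted over the 4 pairs were all 1. Leaving out DMSO replicate 1, the log2 difference of the COL5A1 and COL5A2 ratio went from -0.057 to -0.11, with all 3 YK libraries below DMSO replicates 2 and 3. Of the members of these pairs, COL6A1 stood at 866, 1140 and 1126 in DMSO and 1098, 1075 and 1099 in YK. COL6A2 stood at 36.6, 67.9 and 51.8 in DMSO and 51.4, 49.99 and 51.0 in YK. COL9A3 lay at 12.6 in DMSO replicate 1 and between 28.3 and 40.0 elsewhere, and COL9A2 lay between 82.0 and 134 with overlapping groups.

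**Figure D4:**
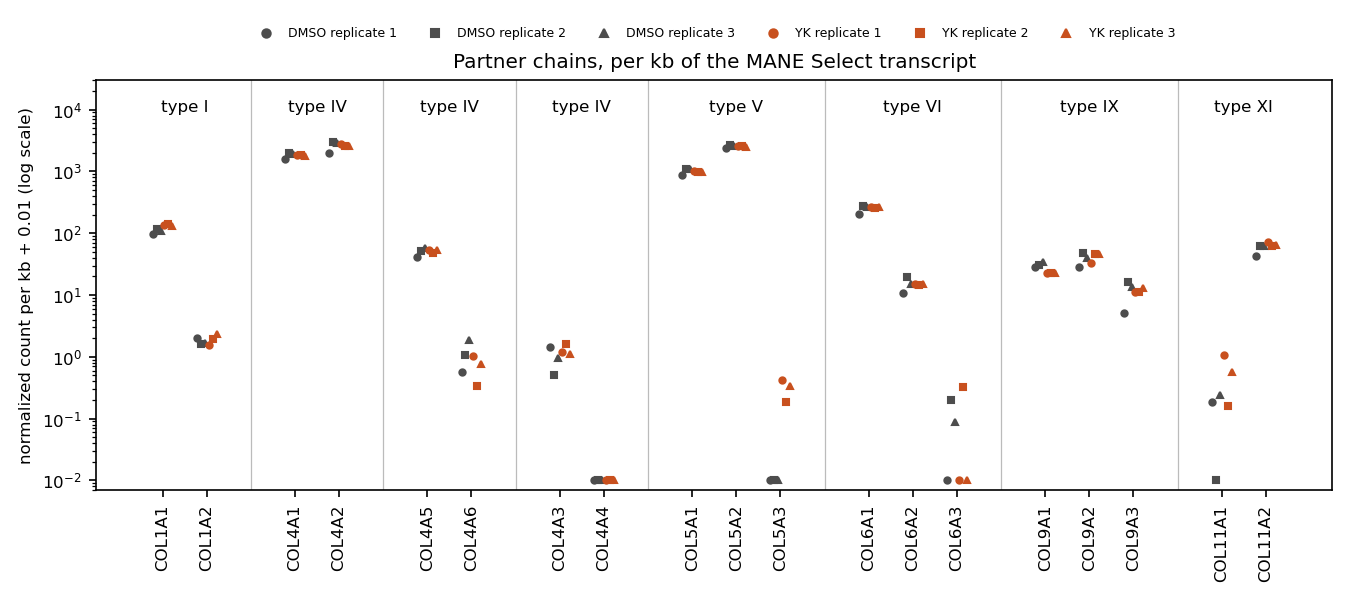
Normalized count per kb of MANE Select transcript + 0.01 (log scale) of the chains of types I, IV, V, VI, IX and XI, by library, with symbols for replicates and colors for groups as in the plot of levels. COL1A1, COL4A5 and COL6A1 lie at 66.3, 54.9 and 17.0 times their partners COL1A2, COL4A6 and COL6A2, while COL4A1 lies at 0.694 of COL4A2.

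Near the filter, COL6A6 and COL26A1 passed and COL1A2 and COL4A3 did not. COL6A6, a type VI chain that can take the place of COL6A3, stood at 13.9, 8.99 and 3.34 in DMSO and 13.7, 13.0 and 14.01 in YK, and passed only through the YK libraries. Its difference of 0.75 had a 95% interval of -0.23 to 1.74 (limma adjusted p = 0.400), and it was 1.147 without DMSO replicate 1 and 0.26 without DMSO replicate 3. COL26A1 stood at 13.9, 19.0 and 12.5 in DMSO and 24.0, 16.3 and 21.0 in YK, a difference of 0.41 (limma adjusted p = 0.4995). Below the filter, COL4A3 had 22 reads in DMSO and 32 in YK, and COL4A6 had 25 and 15.

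Of the other genes below the filter, 4 with few reads had counting intervals clear of 1, and they were picked out after their values were seen. COL20A1, a FACIT chain, had 1 read in DMSO and 15 in YK, a scaled ratio of 14.5 with a 95% interval of 2.24 to 612. COL11A1 had 3 and 14 reads, a ratio of 4.52 (1.26 to 24.5), and COL28A1 had 8 and 22 reads, a ratio of 2.67 (1.14 to 6.92). COL5A3, the third type V chain, had 0 reads in DMSO and 6 in YK, for which the interval starts at 1.14 and no fold is given. These intervals cover counting error only, and not the spread between libraries. COL11A1 overlapped between the groups, at 1.26, 0 and 1.67 normalized counts in DMSO and 7.71, 1.09 and 4.002 in YK. COL20A1, COL28A1 and COL5A3 did not overlap, with COL5A3 at 0 in DMSO and 1.09 to 2.57 in YK. Neither the intervals nor the overlap was worked out over all genes below the filter. Whether a rise in YK was particular to these 4 genes can therefore not be told. The remaining genes below the filter had at most 30 reads in a group, namely COL10A1 with 17 and 30, COL13A1 with 16 and 15, and COL8A1, COL17A1, COL22A1, COL23A1 and COL6A3 with 1 to 4. COL4A4 and COL6A5 had 0 in all 6 libraries, which allows up to 3 reads over the series.

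The collagen genes lay low in DMSO replicate 1 more often than other genes did. That library was the lowest of the 6 for 18 of the 28 genes tested (64.3%), against 28.8% of all genes tested. It was below the mean of DMSO replicates 2 and 3 in 23 of 28, with a median log2 deviation of -0.32, whereas over all genes tested 47.1% were below and the median was 0.020. Collagen chains are rich in glycine and proline, whose codons are rich in G and C, and the 28 genes had a median GC content of 60.8% against 47.9% over all genes tested. The 14 with the higher GC content were all lower in DMSO replicate 1, with a median of -0.56, and of the 14 with the lower GC content 9 were lower, with a median of -0.13. Over the 28 genes Spearman's rho between GC content and this deviation was -0.69, and over all genes tested it was -0.61, both across genes that share the same libraries.

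**Figure D5:**
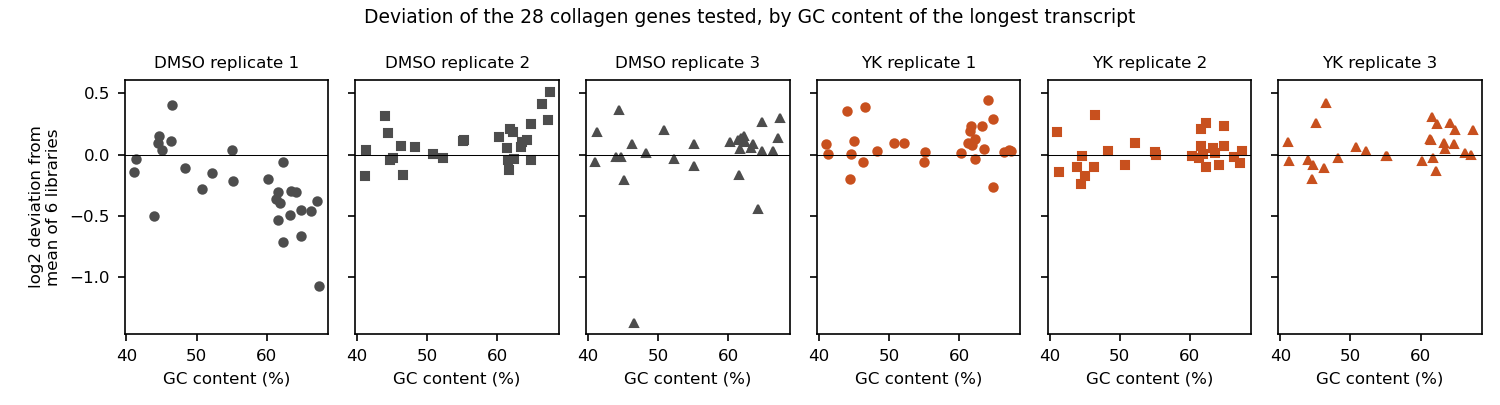
Log2 deviation of each tested collagen gene (n = 28) from its mean over the 6 libraries, against the GC content of its longest transcript, with 1 panel for each library. In DMSO replicate 1 the points fall with GC content, and genes above 60% lie below 0.

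After the dependence of every library on GC content and transcript length had been removed, 4 of the 28 collagen genes were called, against 13.4% of all genes tested (3.50% higher and 9.91% lower). COL1A1 rose by 0.26 and COL19A1 by 0.28 (limma adjusted p = 0.00609 and 0.0288). COL2A1 fell by 0.26 and COL12A1 fell by 0.18 (limma adjusted p = 1.46e-04 and 0.00294). These 4 genes were also called without DMSO replicate 1, each in the same direction. Both settings share libraries, so their calls are not independent of each other. COL5A1, COL4A2, COL9A1 and COL18A1 were called only without that library. With the trend removed they were at -0.11, -0.041, -0.41 and -0.11 (limma adjusted p = 0.111, 0.725, 0.0649 and 0.305). The part of library composition in these differences was not tested.

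Genes that fold, secrete, trim, bind or accompany collagen were read from 6 lists holding 108 genes, of which 91 were tested. With all libraries 1 rose and 4 fell, against 1.26% higher and 2.15% lower over all genes tested, and 61 of the 91 lay below 0, with a median log2 difference of -0.045. Over all genes tested 7246 of 13930 lay below 0, with a median of -0.0075. The list of folding and modifying enzymes had 19 of its 21 tested genes below 0 and a median of -0.050, with 1 call and 3 at an unadjusted p under 0.05, against 3.41% and 18.7% of all genes tested. The call was CRTAP, part of the complex that hydroxylates a single proline of fibrillar chains, which stood at 2428, 2401 and 2421 in DMSO and 2075, 2036 and 1947 in YK. CRTAP fell by 0.26 (SE 0.06, limma adjusted p = 0.0285) with groups well apart. CALR, the calcium-binding chaperone and the most abundant gene of the list, stood at 18108, 20644 and 19831 in DMSO and 17605, 19030 and 17765 in YK, a difference of -0.11 (limma adjusted p = 0.384). CALR fell by 0.16 without DMSO replicate 1 (limma adjusted p = 0.00550) and by 0.17 with the GC and length trend removed (limma adjusted p = 0.00940). The secretion list had 0 calls among 17 by limma, edgeR and DESeq2, with 1 at an unadjusted p under 0.05 against 18.7% of all genes tested, and SEC31A, its most abundant gene and a coat protein of transport vesicles, was at 0.073 (limma adjusted p = 0.643). SEC31A stood at 5695 in DMSO replicate 1, above every other library, and it rose by 0.17 without that library (limma adjusted p = 0.00249).

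Among 13 genes of procollagen trimming and cross-linking, 1 fell, against 2.15% of all genes tested, and 3 (ADAMTS3, TLL1 and PCOLCE) had an unadjusted p under 0.05, against 18.7%. ADAMTS3, an enzyme that removes the amino end of procollagen II, stood at 492, 406 and 422 in DMSO and 310, 318 and 322 in YK. It fell by 0.47 (SE 0.09, limma adjusted p = 0.0186). LOXL2, a cross-linking oxidase and the most abundant of the list, was at 0.038 (limma adjusted p = 0.796). Of the 9 collagen receptors tested 0 passed in limma, edgeR or DESeq2 and 3 had an unadjusted p under 0.05, against 18.7% of all genes tested. Among the 3 was ITGB1, the shared beta chain of the collagen-binding integrins, at 9783, 8048 and 8174 in DMSO and 7163, 7566 and 7376 in YK. The ITGB1 groups did not overlap, and the difference of -0.23 (SE 0.07) had a limma adjusted p of 0.0994. It fell by 0.14 without DMSO replicate 1 (limma adjusted p = 0.0120).

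Of 13 partners of fibrils, TNXB, a tenascin that binds fibrils, rose from 44.1, 45.0 and 41.7 in DMSO to 70.3, 68.5 and 70.0 in YK, by 0.66 (SE 0.17, limma adjusted p = 0.0497). It was the 1 call of that list in limma, against 1.26% of all genes tested higher, and DESeq2 called 0 of the list. Of the 13, 3 had an unadjusted p under 0.05 in limma, against 18.7%. SPARC, which binds collagen and was the most abundant of that list, stood between 19272 and 20185 in all 6 libraries (difference -0.0082, limma adjusted p = 0.956), and its sign turned with TMM scaling (0.010) and quantile scaling (0.091). Of 18 basement membrane partners of type IV collagen, 2 fell, against 2.15% of all genes tested, and 8 had an unadjusted p under 0.05, against 18.7%. Of the 8, LAMA1, LAMA2, LAMA4, LAMA5, NID1, HSPG2 and FREM2 were lower in YK, and LAMB3 was higher (0.32). LAMA1, a laminin chain, stood at 953, 982 and 942 in DMSO and 667, 690 and 690 in YK and fell by 0.49 (SE 0.07, limma adjusted p = 0.00334). NID1, nidogen, which links laminin to type IV collagen, stood at 2436, 2472 and 2365 in DMSO and 1985, 1922 and 1949 in YK and fell by 0.31 (SE 0.06, limma adjusted p = 0.0117). Both were far apart between the groups, and for both the library that stood apart lay with the other DMSO libraries. PXDN, the peroxidase that cross-links type IV collagen, was the most abundant of the list and was at -0.084 (limma adjusted p = 0.413). PXDN fell by 0.15 with the GC and length trend removed (limma adjusted p = 0.0197).

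The number of calls among these partner genes depended on which library was left out. Without YK replicate 1 or 2, limma called 0 of the 91, against 0.136% and 0.165% of all genes tested, with 15 and 10 at an unadjusted p under 0.05. Without YK replicate 3 and DMSO replicate 3 the counts were 1 and 3, against 0.330% and 1.74% of all, and without DMSO replicate 1 the count was 20 of 91, 4 higher and 16 lower, against 13.1% of all genes tested in that setting (4.62% higher and 8.46% lower). Leaving out DMSO replicate 2 gave 7, against 4.85% of all. With all libraries CRTAP, ADAMTS3, NID1 and LAMA1 kept their direction in every one of 17 alternatives, and TNXB in all 16 that tested it. LAMA1 was called in 15, NID1 and ADAMTS3 in 12 each, CRTAP in 10 and TNXB in 6. Leaving out YK replicate 1 gave limma adjusted p = 0.0558 for LAMA1, 0.101 for NID1, 0.130 for ADAMTS3, 0.136 for CRTAP and 0.223 for TNXB. Leaving out YK replicate 2 gave limma adjusted p = 0.0502, 0.104, 0.109, 0.148 and 0.173 in the same order. Without YK replicate 3 LAMA1 kept its call, and limma adjusted p was 0.0928 for NID1, 0.0928 for ADAMTS3, 0.180 for CRTAP and 0.180 for TNXB. Without DMSO replicate 3 CRTAP and TNXB lost the call (limma adjusted p = 0.0968 and 0.124), and without DMSO replicate 2 so did TNXB (limma adjusted p = 0.0641).

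Other cell types that could bring collagen transcripts were checked by their markers. The 7 fibroblast markers summed to 361 to 497 normalized counts in DMSO and 473 to 524 in YK, most of it PDGFRA (312 to 446 in DMSO and 412 to 458 in YK), with TWIST2 at 0 in every library and DCN, a defining fibroblast proteoglycan, at most 1.26. The sums of 5 endothelial markers were 228 to 309 and 211 to 236, with ERG at 0, and those of 5 epithelial markers were 131 to 142 and 130 to 177. The 5 immune markers summed to 3.78 to 13.99 in DMSO and 16.0 to 24.0 in YK, most of it CD14 in every library, with CD68 at 0. In these 4 lists 4, 3, 3 and 1 genes were tested, in the same order. For them limma, edgeR and DESeq2 called 0, against 3.41% of all genes tested in limma. PDGFRA (higher in YK), TEK (lower) and CD14 (higher) had an unadjusted p under 0.05 in limma, against 18.7% of all genes tested. CD14, the only immune marker tested, had a mean of 8.04 in DMSO and 18.5 in YK. It passed the filter only through the YK libraries.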

How the data were processed

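Per the labels, RNA was isolated with TRIzol and made into libraries with an Illumina directional mRNA kit. Per the study's methods, BBDuk was used for trimming and STAR (version 2.7.9a) for alignment to hg38 and counting per gene, and the authors ran DESeq2 (version 1.44.0 in the submitters' processing notes). The deposited signal of a gene is its read count after the authors divided it by 1 size factor per library. The annotation and strand setting of the counting were not given in the sources used here. The table had 35269 rows, and 1 row with no gene name and at most 6 reads per library was left out. Whole reads were recovered by dividing by the value of 1 read, and 100% of values in each library came out whole within 0.01 of a read.

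YK was compared with DMSO in R 4.3.3 with limma 3.58.1 (lmFit, eBayes with trend), two-sided, on log2(normalized count + 1), so that fold changes of low genes are understated. Genes with a mean under 10 over the 6 libraries were not tested, and p-values were adjusted over all 13930 genes tested. Exact permutation tests were run in scipy 1.17.1. The 95% counting intervals of genes with few reads are exact binomial (Clopper-Pearson). Gene positions, exon lengths and GC content came from GENCODE 44 on hg38, and 98.4% of the genes tested had GC content and length. Alternatives were other pseudocounts (0.5 and 10), filters (none and a mean of 100), TMM and quantile scaling, no variance trend, a replicate block, each library left out, tests of the recovered reads in DESeq2 1.42.0 and edgeR 4.0.16, removal of the dependence of every library on GC content and length, other class limits and other transcript lengths. The code was tested on simulated data.

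Genes named were collagen genes that passed the test or whose groups did not overlap, the highest per kb in each class, partner chains and those nearest the filter, and in each partner list the most abundant gene and up to 3 genes with the largest change that passed. The members, gene lists and rules were chosen with earlier results of these data known. The MANE Select length was added after the data were seen.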

Additional observations from a re-analysis of the deposited data

How the results depend on the processing

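Across the 17 alternatives, COL1A1, COL3A1, COL12A1, COL19A1, COL16A1, COL2A1, COL11A2, COL24A1 and COL25A1 kept their direction, and so did COL9A1, COL8A2, COL7A1, COL26A1 and COL6A6 in the 16 that tested them. The number of genes changed (475 of 13930, 176 higher and 299 lower) was 1838 (480 higher) with the GC and length trend removed, 33 (30 higher) with no variance trend, 277 (145 lower) with quantile scaling and 180 with replicate number as a block. It ran from 19 (without YK replicate 1) to 1823 (without DMSO replicate 1) when 1 library was left out. The number of collagen genes changed (1) was 4 with the GC and length trend removed, 2 with no filter (COL1A1 and COL20A1), 0 with no variance trend and 0 with the block, where 5 and 6 had an unadjusted p under 0.05 in limma, and 0 to 8 with 1 library left out. The number of partner genes changed (5) was 20, 2, 3 and 1 with the GC and length trend removed, no variance trend, quantile scaling and the block, and 0 to 20 with 1 library left out. The block does not rest on a stated pairing, since the sources name the samples only as triplicates. Deviations of samples with the same number correlated at -0.099, -0.027 and -0.027. With so few libraries per group these values cannot decide whether the samples were paired.

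With 1 library left out, the fibrillar median ran from 0.025 to 0.16 and the median of the other chains from -0.056 to 0.23, both lowest without DMSO replicate 1, and that of type IV chains was at -0.099 there and at -0.041 with the GC and length trend removed. The median of the other chains was at 0.018 in that setting, at 0.024 with quantile scaling and at -0.025 with a mean of at least 100. With other class limits the fibrillar median was 0.083 and the type IV median 0.0071. The log2 difference between groups in chain ratios ran from -0.081 to 0.052 (COL4A1 over COL4A2), -0.11 to -0.027 (COL5A1 over COL5A2), -0.081 to 0.17 (COL6A1 over COL6A2) and -0.23 to 0.25 (COL9A2 over COL9A3). With the longest transcript or the MANE Select transcript in place of merged exons, fibrillar chains held 44.6% and 44.3% of the summed level per kb and type IV chains 35.6% and 35.4%, which the construction of the lengths accounts for.

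Genes that did not pass also turned sign. With the GC and length trend removed, COL5A2 was at -0.0052, COL4A2 at -0.041, COL6A1 at -0.011, COL4A1 at -0.058, COL6A2 at -0.083 and LOXL2 at -0.034. With quantile scaling COL14A1 was at 0.014, COL18A1 at 0.024, COL5A1 at 0.017, COL6A2 at -0.12, COL21A1 at -0.0052 and SPARC at 0.091. COL6A2 was also at -0.034 in DESeq2 and -0.036 in edgeR, COL9A3 at -0.0043 in edgeR, and SPARC at 0.0063 in DESeq2, 0.010 with TMM and 0.010 in edgeR. With 1 library left out the log2 differences ran from -0.028 to 0.059 (COL5A2), -0.15 to 0.15 (COL4A2), -0.056 to 0.14 (COL6A1), -0.092 to 0.0033 (COL14A1), -0.22 to 0.11 (COL18A1), -0.099 to 0.069 (COL4A1), -0.14 to 0.030 (COL5A1), -0.22 to 0.22 (COL6A2), -0.081 to 0.28 (COL9A2), -0.32 to 0.48 (COL9A3), -0.078 to 0.16 (COL4A5), -0.018 to 0.22 (COL27A1), -0.074 to 0.33 (COL21A1), -0.088 to 0.014 (COL15A1), -0.028 to 0.072 (LOXL2) and -0.025 to 0.0085 (SPARC). Without a turn of sign, the ranges were 0.18 to 0.59 (COL16A1), 0.24 to 0.53 (COL8A2), 0.042 to 0.51 (COL7A1), 0.069 to 0.35 (COL11A2), 0.031 to 0.25 (COL24A1), 0.26 to 1.147 (COL6A6), 0.024 to 0.17 (SEC31A), -0.18 to -0.067 (COL25A1), -0.16 to -0.064 (CALR) and -0.28 to -0.14 (ITGB1). Other causes were not tested.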
